A study of Mus musculus with 24 samples.

Results

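The miR-221 and miR-222 cluster yields 4 mature miRNAs, mmu-miR-221-3p, mmu-miR-221-5p, mmu-miR-222-3p and mmu-miR-222-5p, and their behaviour in a pulse and chase of newly made RNA is described here. They were picked by name from a table of 1221 mature miRNA names, all 4 were present, and all 4 were among the 414 that passed the filter on low counts. For each of them the counts of all isoform classes were added, without counting any read class again. The cells were 3T9, an immortalised line of mouse embryo fibroblasts grown in serum. Per the labels, cells took up 300 µM 4-thiouridine (4SU) during a 3 h pulse and were then given 1 mM uridine, the chase. 4SU is a uridine analogue that enters new transcripts and carries a thiol group, through which the RNA was biotinylated and captured on streptavidin beads. Small RNA libraries of the captured RNA were made in 3 experiments, described as independent in the series design, after 0, 2, 4, 6, 8, 10 and 12 h of chase, 21 in all. A single library of each kind served as control: total RNA from unlabelled cells, total RNA from pulsed cells, and RNA put through the capture although its cells had no label, referred to as the negative extraction.

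A miRNA hairpin is cut into a duplex of 2 strands, one from its 5′ arm (5p) and one from its 3′ arm (3p). Usually one of them is loaded into an Argonaute protein and kept, and the other, the passenger strand, is released. The loaded strand finds its targets mainly through its seed, the bases near its 5′ end. miR-221-3p and miR-222-3p are known in growing cells for repressing Cdkn1b, an inhibitor of the cell cycle, and are counted among the growth-promoting miRNAs.

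The mature sequences are shown because both 3p strands carry one seed and the 5p strand another. Capitals mark the seed, bases 2 to 8 from the 5′ end. The sequences are RefSeq's, on the minus strand of the X chromosome in GRCm38.p6.
miR-221-3p: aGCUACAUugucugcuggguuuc
miR-222-3p: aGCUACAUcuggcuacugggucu
miR-221-5p: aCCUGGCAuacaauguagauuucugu

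miR-221-3p lies at chrX:19146307-19146329, miR-221-5p at chrX:19146344-19146369 and miR-222-3p at chrX:19146901-19146923. Both 3p strands are identical in their first 8 bases and, set side by side without gaps, in 11 of 23 positions. Such a count misses stretches that are the same but out of register, such as cugggu near both 3′ ends. In the RefSeq table their seed, GCUACAU, was found in 1 further mature mouse miRNA, miR-1928, whereas the seed of miR-221-5p, CCUGGCA, was found in no other. 4SU can enter only at uridines, and the strands hold 9 (miR-221-3p), 9 (miR-221-5p) and 7 (miR-222-3p) of them, against a median of 6 over the 346 tested miRNAs that had a RefSeq sequence. miR-222-5p is given by name only.

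The hairpins show how the arms sit in their precursors, with the listed mature strands in capitals.
Mir221: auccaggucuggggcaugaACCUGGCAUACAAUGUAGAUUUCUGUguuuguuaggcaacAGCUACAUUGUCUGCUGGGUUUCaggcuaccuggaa
Mir222: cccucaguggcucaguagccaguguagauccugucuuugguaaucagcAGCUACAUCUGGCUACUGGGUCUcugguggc

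Mir221 spans chrX:19146294-19146388 and Mir222 spans chrX:19146893-19146971, with 504 bases between them. No other gene of the GENCODE annotation overlapped either hairpin.

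Depth, the summed miRNA count of a library, was 1133048 to 7886484 in the labelled libraries, 6412428 in unlabelled total RNA, 4525638 in total RNA of pulsed cells and 283922 in the negative extraction. It was lower at 12 h (1133048 to 3281631) than at 0 h (3019171 to 7733333) in each experiment, and its part in the results was not tested. Levels are given as CPM, counts scaled to a common library sum, and 3 counts are worth 0.38 to 2.65 CPM in labelled libraries, against 10.6 CPM for the negative extraction. Each experiment has its own code on the second header line of the table, which the labels do not explain; in experiment 1 the first part of the code of the 0 h library differs from that of the other times. The total RNA libraries share a further code, so labelled and total RNA cannot be told apart from this code. All 7 fibroblast miRNAs checked were present, at 140078 to 267110 CPM together, while 5 of 6 blood, 5 of 7 epithelial, 2 of 2 endothelial and 2 of 3 muscle miRNAs stayed under 10 CPM in every labelled library. Of the muscle miRNAs, miR-1a-3p was at 0 in all 21 labelled libraries, and miR-133a-3p reached at most 1.27 CPM. The third, miR-206-3p, was found in every labelled library, at 1.14 to 21.7 CPM. The blood miRNA above the limit was miR-486a-5p, at 183 to 733 CPM. The epithelial sum was mostly miR-205-5p and went from a mean of 713 CPM at 0 h to 371 CPM at 12 h; its part in the results below was not tested.

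The order of the levels was the same in 21 of 21 labelled libraries. miR-222-3p was the most abundant, with a median of 11188 CPM (6599 to 22142), which placed it between rank 14 and rank 27 of all miRNAs in a library. miR-221-3p followed at 1855 CPM (1435 to 2597). The 5p strands were rarer, at 367 CPM for miR-221-5p (181 to 1004) and 161 CPM for miR-222-5p (86.8 to 201). The ranges of neighbours in this order were separate except for the 5p strands, whose ranges met between 181 and 201 CPM, although within a library miR-221-5p was at least 1.71 times miR-222-5p. Together the 4 strands took 0.84 to 2.46% of the labelled counts.

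miR-221-5p, the strand of the miR-221 hairpin with fewer counts, fell over the chase in every experiment. In experiment 1 it stood at 456, 346, 273, 263, 265, 235 and 181 CPM from 0 to 12 h. The values in experiment 2 were 1004, 607, 477, 436, 367, 423 and 363 CPM, and those in experiment 3 were 702, 495, 453, 398, 290, 328 and 298 CPM. In each experiment 5 of 6 steps went down, the largest drop came within the first 2 h, and every 12 h library lay under every 0 h library. The mean went from 721 ± 275 CPM at 0 h to 280 ± 92.2 CPM at 12 h (SD, n = 3), and the level at 12 h was 0.396, 0.361 and 0.424 of that at 0 h in experiments 1 to 3. A culture in which fewer cells hold a miRNA and one in which each cell holds less of it cannot be told apart in such libraries.

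**Figure D1:**
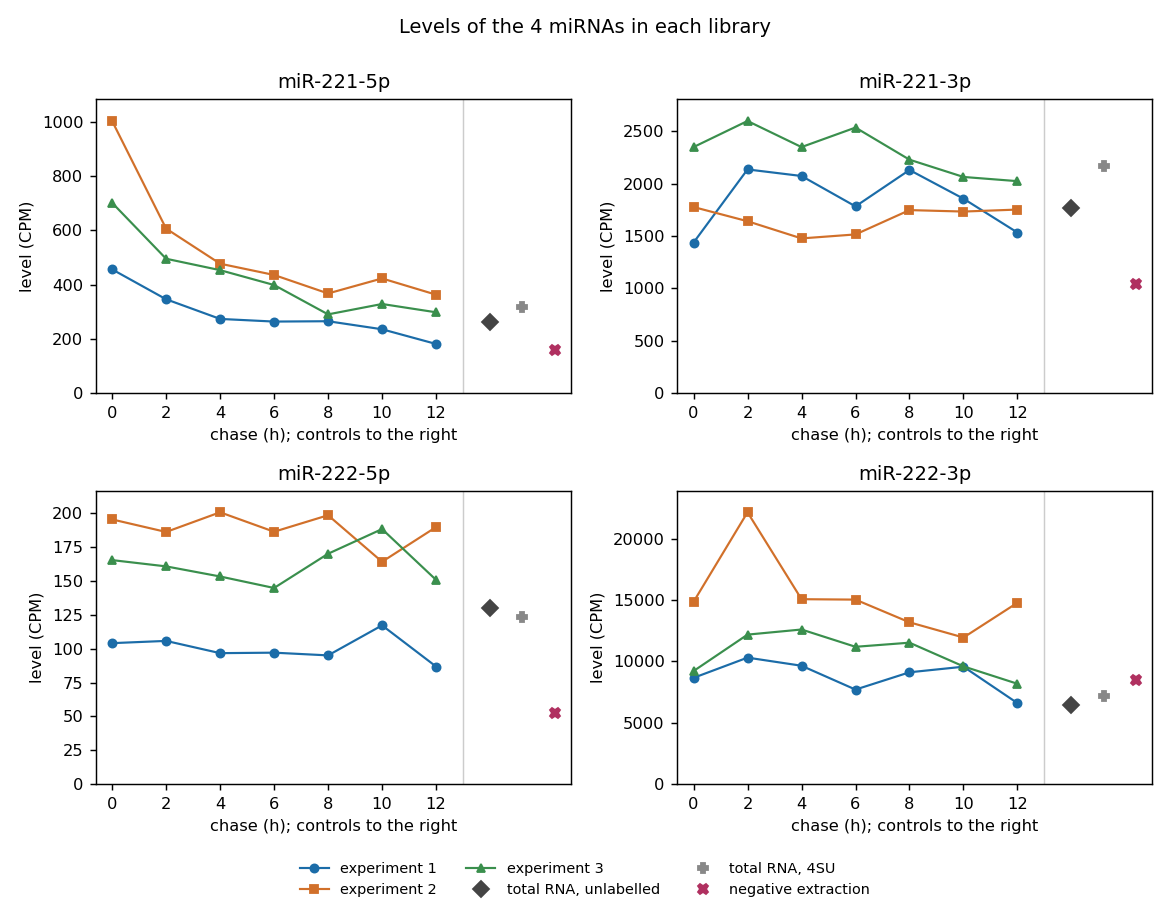
Levels of the 4 miRNAs in CPM (linear axis from 0) against hours of chase, 1 line per experiment, with the 3 single control libraries at the right of each panel. miR-221-5p went from 456, 1004 and 702 CPM at 0 h to 181, 363 and 298 CPM at 12 h, while the 0 h and 12 h values of each other strand overlap.

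A slope was fitted over the 21 labelled libraries to ask how each miRNA's part of the labelled pool moved with the hours of chase. No spike-in enters, so a slope is relative to the other miRNAs and is not a decay rate. With edgeR's quasi-likelihood test and TMM scaling, 51 of 414 miRNAs passed an adjusted p of 0.05 (12.3%), 30 falling (7.25%) and 21 rising (5.07%). Of the 4 strands, 1 passed: miR-221-5p, with a slope of -0.082 log2 per hour (SE 0.023, adjusted p = 0.0232). It ranked 37 from the lowest of 414, and the median of all was -0.0037. With the experiment as a block, 132 miRNAs passed (31.9%), 69 falling (16.7%) and 63 rising (15.2%), and the slope of miR-221-5p was -0.081 (SE 0.0099, adjusted p = 1.97e-07). Without the block the call was lost without experiment 3 (adjusted p = 0.178), without the 0 h libraries (-0.057, adjusted p = 0.313), without the 12 h libraries (0.0594) and without the single 0 h library of experiment 2 (0.0689) or of experiment 3 (0.0591). It passed without experiment 1 (-0.086, adjusted p = 0.0188) and without experiment 2 (-0.073, adjusted p = 0.0279). With the block it held without each experiment, without 0 h (-0.057, adjusted p = 0.000245) and without 12 h (7.94e-06).

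Single time points were compared in the same way. From 0 to 12 h miR-221-5p changed by -1.12 log2 (SE 0.39), which missed the threshold (adjusted p = 0.151) where 5 of 414 miRNAs passed (1.21%). With the block the change was -1.11 (SE 0.13, adjusted p = 4.35e-07) and 90 passed (21.7%). It also passed with scaling to total counts alone (-1.36, adjusted p = 0.0369), which shifts the median miRNA by -0.24. Upper-quartile scaling shifts it by 0.13 and gave -0.95. In CPM, the 3 libraries at 12 h and the 3 at 0 h did not overlap for 83 of 414 miRNAs (20%), 65 of them lower at 12 h (15.7%). miR-221-5p was among those, and the other 3 strands were not.

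The fall was spread over both stretches of the chase once the experiments were paired. From 0 to 2 h the blocked change of miR-221-5p was -0.49 log2 (SE 0.12, adjusted p = 0.0158), where 14 of 414 passed (3.38%). From 2 to 12 h it was -0.62 (SE 0.12, adjusted p = 0.00149), where 56 passed (13.5%). Without the block edgeR called 0 of 414 in either contrast (0%), with 10 and 38 miRNAs at an unadjusted p under 0.05. DESeq2 called 1 and 7, and limma-voom 1 and 0.

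miR-221-3p, the abundant strand of the same hairpin, had no slope past the threshold. Its values from 0 to 12 h were 1435, 2134, 2072, 1782, 2129, 1855 and 1531 CPM in experiment 1. They were 1775, 1640, 1475, 1514, 1746, 1732 and 1751 CPM in experiment 2. Experiment 3 gave 2348, 2597, 2348, 2534, 2227, 2063 and 2022 CPM. Experiment 1 ended above its start, experiments 2 and 3 below it, and the libraries of every later time overlapped those of 0 h. The slope was 0.011 (SE 0.015, adjusted p = 0.734; 0.331 with the block), and its sign turned with scaling to total counts alone (-0.0091).

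miR-222-3p, which shares that seed, was highest at 2 or 4 h in each experiment. In experiment 1 it measured 8659, 10306, 9646, 7704, 9113, 9567 and 6599 CPM. In experiment 2 it measured 14849, 22142, 15065, 15030, 13182, 11944 and 14779 CPM, and in experiment 3 9213, 12180, 12596, 11188, 11523, 9593 and 8176 CPM. Its 2 h level was 1.19, 1.49 and 1.32 times its 0 h level, a blocked difference of 0.48 log2 (SE 0.15) with an adjusted p of 0.108. The slope over the whole chase was -0.012 (SE 0.025, adjusted p = 0.837; 0.531 with the block). From 2 h on, with the block and without the 0 h libraries, it was -0.037 (SE 0.013, adjusted p = 0.0332). With the block and scaling to total counts alone, the slope over the whole chase also passed in edgeR (-0.03, SE 0.011, adjusted p = 0.0339), as did the difference of 12 h from 2 h (-0.6 log2, SE 0.14, adjusted p = 0.00398).

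miR-222-5p, the rarest of the 4, had no slope past the threshold either. It stood at 104, 105.8, 96.7, 97.1, 95.1, 117 and 86.8 CPM in experiment 1. Experiment 2 gave 195.4, 186, 201, 186, 199, 164 and 190 CPM, and experiment 3 gave 165, 161, 153, 145, 170, 188 and 151 CPM. Experiment 1 was lowest at each time, and the 0 h and 12 h libraries overlapped. The slope was 0.016 (SE 0.025, adjusted p = 0.775; 0.23 with the block), and its sign turned with scaling to total counts alone (-0.0038). These values rest on 215 to 866 counts per library.

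**Figure D2:**
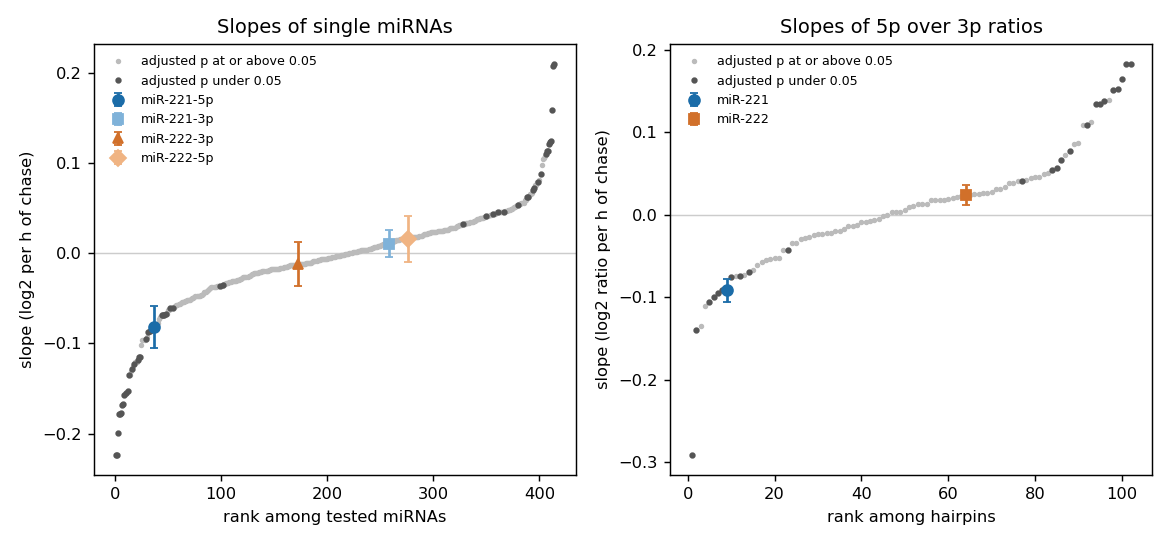
Left, slopes in log2 per hour of all 414 tested miRNAs in rank order, with the 4 strands marked and bars for their SE; right, slopes of log2 of the 5p over 3p ratio for 102 hairpins. miR-221-5p (-0.082) and the miR-221 ratio (-0.092) lie among the dark points that passed the test, and the other marked strands and the miR-222 ratio (0.024) among the pale ones.

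Other miRNAs with a role in the cell cycle were looked at as lists, which were chosen with earlier results of these data known. Their counts are therefore a description and no test of the lists, and members that share a cluster are not independent. Of 11 growth-promoting miRNAs, 5 rose and 0 fell, where 5.07% of all 414 rose and 7.25% fell, with a median slope of 0.041 against -0.0037 over all. With the block 7 rose and 0 fell, where 15.2% of all rose and 16.7% fell. Those that rose included miR-19b-3p (0.12, adjusted p = 0.00275) and miR-92a-3p (0.072, adjusted p = 0.00897) of the miR-17 to miR-92a cluster and miR-21a-5p (0.062, adjusted p = 0.00897). The 3p strands of miR-221 and miR-222, at 0.011 and -0.012, lay below that median. Of 15 tested miRNAs known for restraining the cell cycle, such as let-7 and miR-34, 0 passed in edgeR without the block, at a median of 0.0086. With the block 3 rose and 1 fell, against those same 15.2 and 16.7% of all. Among 102 hairpins with both arms tested, 4 of the 5p strands rose and 9 fell, and 5 of the 3p strands rose and 12 fell, with medians of -0.00048 and -0.0091, next to 5.07% rising and 7.25% falling of all 414. With the block 12 of the 5p strands rose and 16 fell, and 19 of the 3p strands rose and 21 fell.

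Ratios within a library do not depend on the scaling between libraries, so both arms of each hairpin were compared directly. For miR-221 the 5p over 3p ratio was 0.318, 0.566 and 0.299 at 0 h in experiments 1 to 3. At 2 h it was 0.162, 0.37 and 0.191, and at 12 h it was 0.118, 0.207 and 0.147. The ratio thus fell 2.69-fold, 2.73-fold and 2.03-fold, and the largest single step was that from 0 to 2 h in each experiment. The ratio was 0.149 and 0.147 in the total RNA libraries and 0.153 in the negative extraction, where it rests on 45 and 295 counts. The 0 h ratios all lay above these control values, and the 12 h ratios lay on both sides of them: in experiment 2 the ratio stayed above total RNA at every time. In terms of shares, miR-221-5p made up 24.1, 36.1 and 23% of the hairpin's counts at 0 h and 10.6, 17.2 and 12.8% at 12 h. The Wilson 95% interval of the lowest of these, in experiment 1 at 12 h, was 9.78 to 11.4%, and such intervals cover counting error only.

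The slope of the log2 ratio of miR-221 was -0.092 per hour (SE 0.014). Permuting the time points within experiments gave a permutation p of 1e-05, the smallest that 100000 resamples allow, and an adjusted p of 0.00017 over 102 hairpins. In that permutation test 25 of 102 hairpins passed (24.5%), 11 falling (10.8%) and 14 rising (13.7%), and miR-221 ranked 9 from the lowest, against a median of 0.01. Permuting without regard to the experiments gave an adjusted p of 0.0487 and 8 calls. Without the 0 h libraries the slope was -0.055 (adjusted p = 0.00272, permutation), and it passed without each experiment in turn.

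The arm ratio of miR-222 had no slope past the threshold. It was 0.012, 0.0132 and 0.018 at 0 h, 0.0103, 0.0084 and 0.0132 at 2 h, and 0.0132, 0.0128 and 0.0184 at 12 h. At 2 h it was lower than at 0 h in each experiment, and at 12 h it was 1.09, 0.976 and 1.03 times its 0 h value. Total RNA gave 0.0202 and 0.0172, and the negative extraction 0.0062 from 15 counts of miR-222-5p. The slope was 0.024 (SE 0.012, permutation, adjusted p = 0.155). It passed without the 0 h libraries (0.0503, permutation, adjusted p = 0.015) and with canonical reads alone (0.057, permutation, adjusted p = 0.00879). The canonical comparison rests on 0.081 to 0.87% of the reads of miR-222-3p, and the canonical share of miR-222-5p itself rose, as described below.

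**Figure D3:**
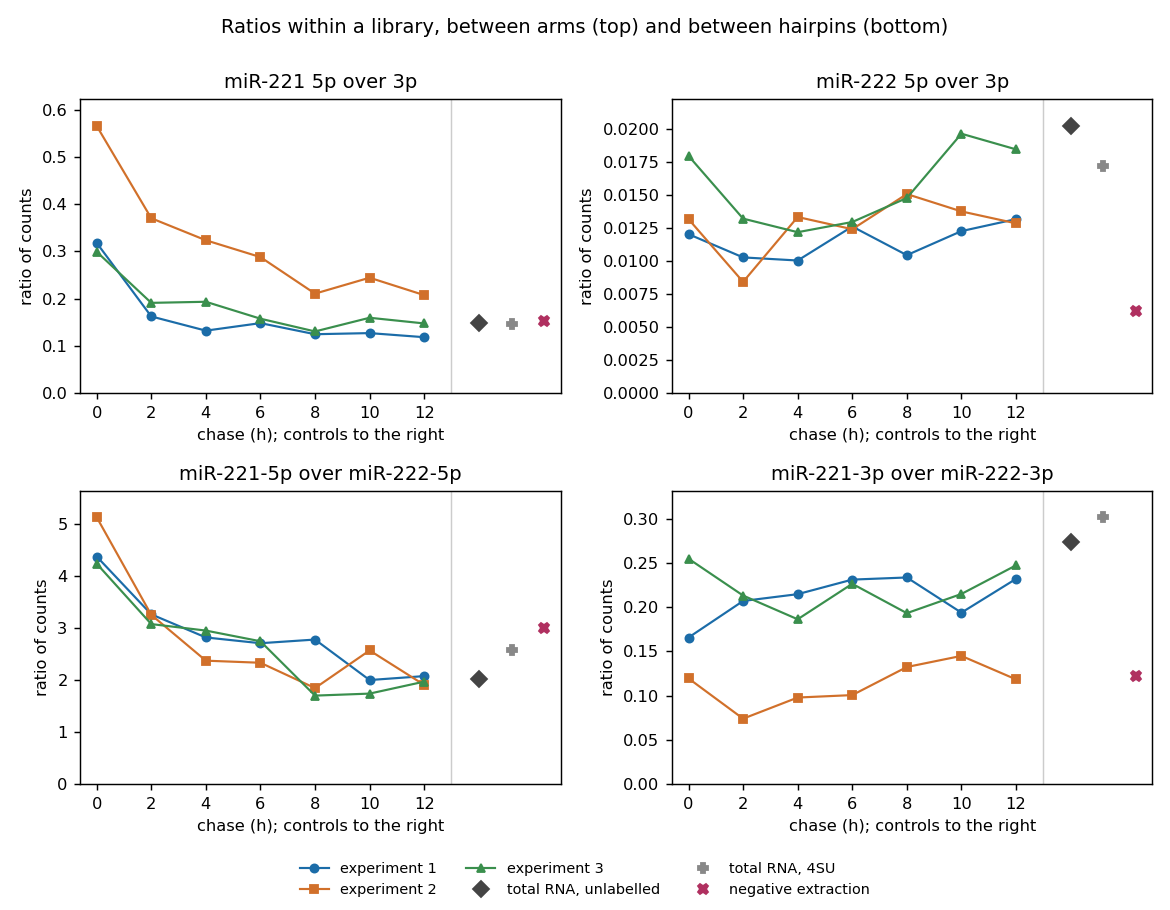
Ratios of counts within each library (linear axes from 0) against hours of chase, 1 line per experiment, with the controls at the right; top, 5p over 3p of each hairpin, bottom, the same arm of miR-221 over miR-222. The miR-221 arm ratio went from 0.318, 0.566 and 0.299 at 0 h to 0.118, 0.207 and 0.147 at 12 h, against 0.149 and 0.147 in total RNA; the ratio between the 5p strands fell too, and the other panels had no slope past the threshold over all 21 libraries.

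The strands were also set against their cluster mates, which gave 3 comparisons whose p-values were adjusted over these 3. The ratio of miR-221-5p to miR-222-5p was 4.38, 5.14 and 4.25 at 0 h and 2.08, 1.91 and 1.97 at 12 h, with 2.02 and 2.58 in total RNA. Its slope was -0.094 (SE 0.013, permutation p = 2e-05, adjusted 3e-05). Of these strands, only miR-221-5p had a slope past the threshold in summed counts. Other pairs of hairpins were not compared in this way, so no share over all pairs is given. The ratio of miR-221-3p to miR-222-3p was 0.166, 0.12 and 0.255 at 0 h and 0.232, 0.118 and 0.247 at 12 h, with 0.274 and 0.302 in total RNA. Its slope was 0.022 (SE 0.012, permutation p = 0.0859, adjusted 0.0859); it passed without experiment 3 (0.033, permutation, adjusted p = 0.0489) and without the 0 h libraries (0.035, permutation, adjusted p = 0.0154). With canonical reads alone it turned to -0.028 (permutation, adjusted p = 0.0324), a comparison that rests on under 1% of the reads of miR-222-3p. The difference between both arm ratios had a slope of -0.12 (SE 0.013, permutation p = 1e-05, adjusted 3e-05): the arms of miR-221 moved apart relative to those of miR-222.

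The deposited classes divide the reads of each miRNA into the canonical sequence, trimmed forms, forms extended at an end by bases that match the genome (templated), and forms with added bases that do not. The sources used here do not give their exact definitions or the reference ends. The 4 strands differed in make-up. miR-221-5p was mostly canonical (median 77.8% of its counts over the labelled libraries, 68.5 to 83%). miR-221-3p was divided between canonical (48%), trimmed (39.2%) and 3′ U-extended reads (10.5%). miR-222-3p fell almost entirely into the class of templated 3′ extension, at 97 to 99%, so its share depends on the reference end used. miR-222-5p had 33% canonical, 38.2% 5′ templated and 15% 3′ templated reads.

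**Figure D4:**
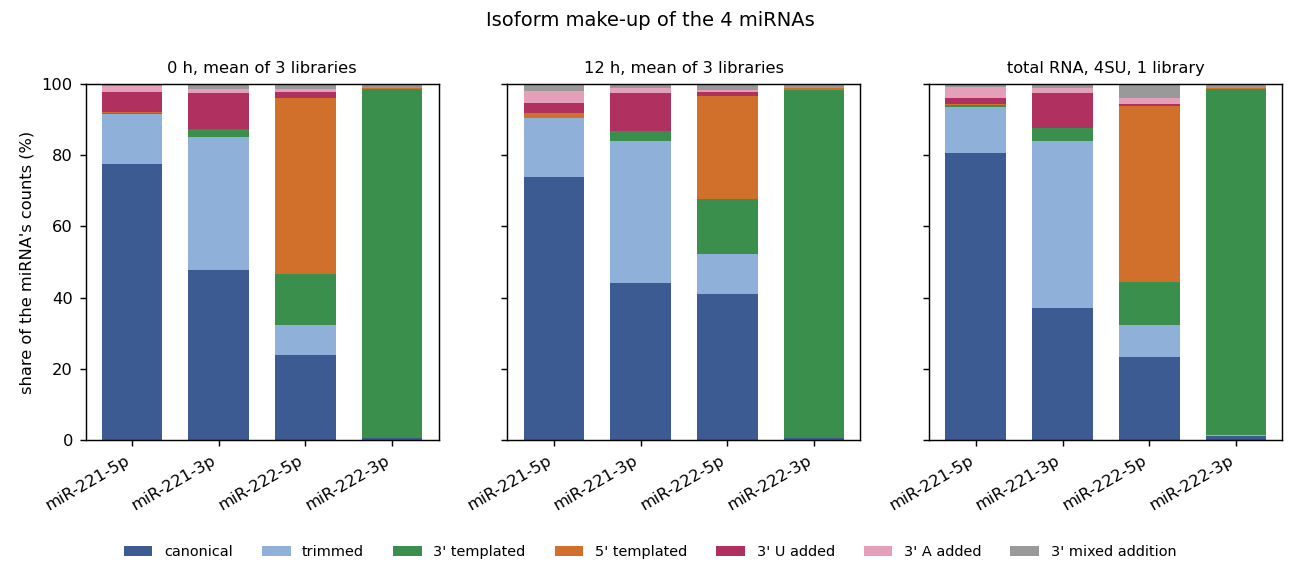
Stacked shares of isoform classes in percent of each miRNA's counts, as means of 3 libraries at 0 h and at 12 h and in the single library of total RNA from pulsed cells. The 5′ templated share of miR-222-5p was 49.4% at 0 h, 28.9% at 12 h and 49.6% in that total RNA, and miR-222-3p was over 97% templated 3′ extension in each.

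Changes in these shares were tested for 700 pairs of a miRNA and a class in 156 miRNAs, by permuting times within experiments. Of these, 211 passed (30.1%), 110 rising (15.7%) and 101 falling (14.4%). The 4 strands had 12 of 20 pairs past the threshold: 5 of 5 for miR-221-5p, 3 of 6 for miR-221-3p, 1 of 2 for miR-222-3p and 3 of 7 for miR-222-5p. Calls were more common among well-counted miRNAs. With at least 200 counts in every labelled library, which all 4 strands had, 204 of 479 pairs passed. There the mixed 3′ additions of miR-222-3p passed as well (permutation, adjusted p = 0.0443). The classes of one miRNA divide one total, so their calls are not independent: a share that falls goes with others that rise. Of these 12 calls, 8 were lost under at least one alternative. The 4 that held under each one run were the 3′ A and the mixed 3′ additions of miR-221-5p and the canonical and 5′ templated shares of miR-222-5p.

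Within miR-222-5p, whose summed level had no slope past the threshold, the forms changed. Its canonical share was 22.1, 26.4 and 22.8% at 0 h and 46.3, 36.7 and 39.8% at 12 h in experiments 1 to 3. The total RNA libraries stood at 24.9 and 23.2%, under each of the 12 h libraries. The slope was 1.52 percentage points per hour (SE 0.21, permutation, adjusted p = 0.000333), the highest of 149 miRNAs whose canonical share was tested, of which 17 rose (11.4%). The 5′ templated share went the other way, from 47.5, 50.9 and 49.8% at 0 h to 19.3, 40.5 and 27% at 12 h. Its slope was -1.89 points per hour (SE 0.28, permutation, adjusted p = 0.000333), the lowest of 18 tested, of which 4 fell (22.2%). Total RNA stood at 46.9 and 49.6%, close to the 0 h libraries. A read with extra bases at the 5′ end has its seed in a different place from the canonical read. Where the seed lies in these reads of miR-222-5p was not examined, since the reference ends are not given.

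In CPM, the 5′ templated reads of miR-222-5p went from 49.4, 99.4 and 82.4 at 0 h to 16.8, 76.8 and 40.7 at 12 h. The canonical reads went from 23, 51.7 and 37.7 to 40.2, 69.7 and 60. In all 3 experiments the former went down and the latter up. When edgeR was run on the canonical entries of all miRNAs alone, the slope of miR-222-5p was 0.081 (SE 0.025, adjusted p = 0.0309), one of 18 that rose among 288 tested (6.25%). miR-221-5p fell there too (-0.093, adjusted p = 0.0117), where 27 fell (9.38%). Counts are few: the Wilson 95% interval of the canonical share in experiment 2 at 12 h ran from 30.6 to 43.4%, and that of experiment 1 at 0 h from 19.4 to 25.1%. The slopes of both classes passed the permutation test without each experiment and without the 0 h libraries.

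**Figure D5:**
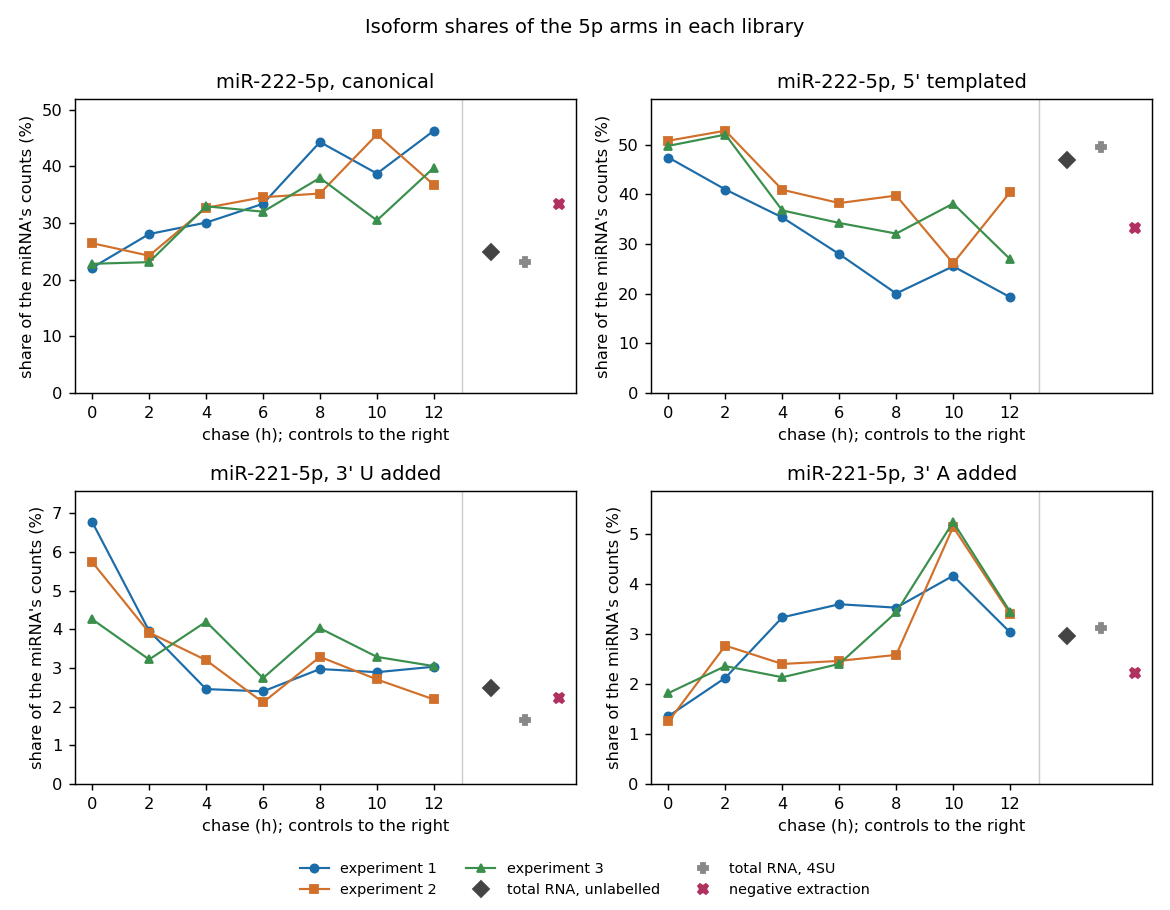
Shares of 4 isoform classes in percent of the miRNA's counts (linear axes from 0) against hours of chase, 1 line per experiment, with the controls at the right. Canonical miR-222-5p rose from 22.1 to 26.4% at 0 h to 36.7 to 46.3% at 12 h as its 5′ templated share fell; the U-extended share of miR-221-5p went from 4.26 to 6.77% at 0 h to 2.19 to 3.05% at 12 h.

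The tail of miR-221-5p changed as well. The share of reads with an added 3′ U was 6.77, 5.74 and 4.26% at 0 h and 3.04, 2.19 and 3.05% at 12 h, with 2.49 and 1.67% in total RNA. The slope was -0.18 points per hour (SE 0.052, permutation, adjusted p = 0.00818), where 19 of 70 fell (27.1%). It lost its call without the 0 h libraries (-0.067, permutation, adjusted p = 0.259), without experiment 1 (0.053) and without experiment 2 (0.101). The share with an added 3′ A rose from 1.36, 1.25 and 1.82% to 3.04, 3.41 and 3.45%, against 2.97 and 3.13% in total RNA. That slope was 0.19 (SE 0.041, permutation, adjusted p = 0.00192), where 33 of 100 rose (33%), and it passed without each experiment. Both additions are known from uridylating and adenylating enzymes that act on small RNA ends. At 0 h more reads ended in an added U than in an added A in each experiment, and at 12 h the A-extended share was at or above the U-extended share in each.

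Several smaller shifts passed in the strands of miR-221. The canonical share of miR-221-5p fell by 0.63 points per hour (SE 0.16, permutation, adjusted p = 0.00743), from 77.6 ± 5.24% at 0 h to 73.8 ± 1.53% at 12 h, where 36 of 149 miRNAs fell (24.2%). In experiment 1 this share was 72.3% at 0 h and 73.2% at 12 h, the 12 h mean lay within 1 SD of the 0 h mean, and the call was lost without experiment 3 (permutation, adjusted p = 0.106). Its trimmed share rose by 0.43 (permutation, adjusted p = 0.0104), where 33 of 142 rose (23.2%), a call lost without experiment 3 (0.0969) and when times were permuted without regard to the experiments (0.0812). Mixed 3′ additions rose by 0.13 (permutation, adjusted p = 0.000457), where 16 of 98 rose (16.3%). In miR-221-3p the canonical share fell by 0.5 (permutation, adjusted p = 0.00238), from 47.8 ± 4.19% to 44.1 ± 5.25%, and the trimmed share rose by 0.35 (permutation, adjusted p = 0.0149). The 0 h and 12 h means of miR-221-3p lie within 1 SD of each other, and these calls were lost when times were permuted without regard to the experiments (adjusted p = 0.236 and 0.503); that of the trimmed share was also lost without experiment 1 (0.134). The U-extended share of miR-221-3p was 11.3, 12.5 and 6.63% at 0 h and 9.73, 14 and 8.8% at 12 h, with a slope of 0.096 (permutation, adjusted p = 0.125). The templated 3′ share of miR-222-3p fell by 0.036 (permutation, adjusted p = 0.0264), from 98.2 ± 0.53% to 97.9 ± 0.7%, where 19 of 102 fell (18.6%), a call lost without any 1 of the experiments (0.0683 to 0.144).

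The control libraries have no replicates and were compared without a test. In total RNA of unlabelled cells miR-222-3p stood at 6440 CPM, miR-221-3p at 1762, miR-221-5p at 263 and miR-222-5p at 130, in the same order as in the labelled libraries. Total RNA of pulsed cells gave 7176, 2165, 318 and 123 CPM. Relative to the latter, the 0 h mean was higher by 1.11 log2 for miR-221-5p, 0.56 for miR-222-3p and 0.28 for miR-222-5p. It was lower for miR-221-3p (-0.25). Over 414 miRNAs the median was -0.028, with quartiles of -0.98 and 0.72. Of the 4 strands only miR-221-5p lay outside these quartiles, at rank 350 from the lowest. For miR-221-5p the value was 0.52, 1.66 and 1.14 in experiments 1 to 3, positive in each. By 12 h it was -0.24 for the mean and -0.81, 0.19 and -0.094 in the experiments, on both sides of 0. The median of all was then -0.44, with quartiles of -1.44 and 0.37.

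The negative extraction held miR-222-3p at 8499 CPM (2413 counts, exact Poisson 95% interval 8163 to 8845 CPM), miR-221-3p at 1039 CPM (924 to 1165), miR-221-5p at 158 CPM (116 to 212) and miR-222-5p at 52.8 CPM (29.6 to 87.1). CPM is relative to a library with 283922 counts, so it does not give the amount of RNA that came through without a label. miR-221-5p was 2.85 times higher in the 0 h library of experiment 1, while miR-222-3p was 1.02 times higher. That library shares the second part of its header code with the negative extraction. As log2 of the negative extraction over that library, these were -1.51 and -0.027. Over 414 miRNAs the median was -0.27, with quartiles of -1.03 and 0.52, and miR-221-5p ranked 52 from the lowest. How much unlabelled RNA the labelled libraries hold was not tested.

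The likeness of other miRNAs was measured as Pearson's r over the 21 labelled libraries, after each experiment's mean was taken off. These libraries share depth and chase time, and r is given as a description. Nearest to miR-221-5p were miR-92a-1-5p (0.92), miR-27b-5p (0.88) and miR-466b-3p (0.88). Their slopes were -0.18, -0.035 and -0.095 log2 per hour. miR-466b-3p belongs to a family of near-identical copies whose reads may be divided among names. For miR-221-3p they were miR-18a-5p (0.68), miR-7a-5p (0.67) and miR-374b-5p (0.66). For miR-222-3p they were miR-328-3p (0.68), miR-877-3p (0.67) and miR-877-5p (0.65), and for miR-222-5p let-7e-5p (0.74), let-7i-5p (0.7) and miR-25-5p (0.69). The 4 strands were less like each other than any of these: r was 0.37 between both 3p strands, -0.18 between both 5p strands, -0.13 between the arms of miR-221 and 0.27 between those of miR-222.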

How the data were processed

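Small RNA libraries of 3T9 cells were counted by the authors, and the values used are the whole-number read counts per isoform class that they deposited, not normalised, 1 column per library. Per the submitters' processing notes, base calling used CASAVA 1.8.0. For the aligner, the annotation and the handling of reads that match several miRNAs, the sources used here say nothing. Of 7129 entries, 1 occurred in duplicate and was removed. Totals of non-templated reads equalled the sum of their parts in 25632 of 25632 cells and were used once.

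The members and lists were chosen with earlier results of these data known. The text names the 4 strands, for each the 3 tested miRNAs with the highest Pearson's r, and a list of growth-promoting, a list of cell cycle restraining miRNAs and both arms of all hairpins. Slopes and contrasts of time points came from edgeR 4.0.16 (R 4.3.3), quasi-likelihood test, TMM, filterByExpr, Benjamini-Hochberg over 414 miRNAs, threshold 0.05. DESeq2 1.42.0 and limma 3.58.1 were alternatives. Logs of levels for r used a prior count of 2.

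Arm ratios (0.5 added to each count) and isoform shares (at least 50 counts in every labelled library and a mean share of 1%) were tested in Python 3.11.15 (NumPy 2.4.6, SciPy 1.17.1) by a two-sided permutation of time points inside each experiment, 100000 resamples. Wilson and exact Poisson intervals are at 95%, and the reads carry no molecular identifiers. The scripts were tested on simulated data. Experiment numbers from the labels pair the libraries, since each library's deviation from its time-point mean correlated at 0.462 to 0.897 in all 63 pairs of one experiment. In 126 pairs of different experiments and times the correlation was -0.791 to 0.263. Subtracting a mean over the experiments itself tends to make these latter values negative, so they do not bear on the pairing. The edgeR model had no term for the experiment, and values with it as a block are given where they change a call.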

Additional observations from a re-analysis of the deposited data

How the results depend on the processing

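The slope of miR-221-5p and that of its arm ratio were negative under each alternative run. With the experiment as a block (the pairing of libraries), 132 miRNAs had a slope, 147 with total counts only as well, 92 without 0 h and 110 without 12 h, against 51. Blocked contrasts called 90 (12 h against 0 h), 14 (2 h against 0 h) and 56 (12 h against 2 h), and with total counts 101, 14 and 62. Permuting without the block left 8 arm ratios and 94 isoform shares. Total counts alone turned the split of slope calls to 10 rising and 47 falling, and upper-quartile scaling to 39 and 24.

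Without the block, the slope calls numbered 14 without 0 h and 21 without 12 h, and 12 h against 0 h gave 15 (DESeq2), 10 (no filter), 14 (total counts) and 8 (upper quartile). For 12 h against 2 h, DESeq2 gave 7 and no filter 5, and for 2 h against 0 h DESeq2 and limma-voom gave 1 each. Without 0 h, 16 arm ratios were called. Leaving out experiments or single libraries gave 15 to 79 slope calls (84, 148 and 83 with the block and without experiments 1, 2 and 3), 0 to 12 for 12 h against 0 h, 0 to 1 for 2 h against 0 h, 0 to 2 for 12 h against 2 h, 10 to 33 arm ratios and 127 to 199 isoform shares.

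The arm ratio slope of miR-222 reached 0.057 with canonical reads, which are at most 0.87% of those of miR-222-3p. It was 0.0503 without 0 h, and ranged from 0.017 to 0.033 without single libraries or experiments. The ratio of miR-221-3p to miR-222-3p had slopes of -0.028 with canonical reads, 0.035 without 0 h, and 0.012 to 0.033 without single libraries or experiments.

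Signs turned only for values that missed the threshold, apart from that canonical ratio. For the slope of miR-221-3p these were -0.0091 with total counts, -0.0036 with canonical reads and -0.0026 without 0 h. With the block they were -0.0074 with total counts and -0.0018 without 0 h. The slope of miR-222-3p was 0.024 with canonical reads. That of miR-222-5p was -0.0038 with total counts alone and -0.0039 with total counts and the block. For 12 h against 0 h, total counts alone gave -0.067 for miR-221-3p, -0.15 for miR-222-3p and -0.12 for miR-222-5p. Total counts with the block gave -0.054, -0.18 and -0.15 for them. The fit with no filter gave -0.0202 for miR-222-3p. For 2 h against 0 h miR-222-5p gave -0.039 with total counts alone and -0.028 with total counts and the block. For 12 h against 2 h miR-221-3p gave 0.038 (upper quartile) and miR-222-3p 0.25 (canonical reads). There miR-222-5p gave -0.086 (total counts), -0.016 (no filter) and -0.12 (total counts with the block). Without 0 h the 3′ A share of miR-222-5p had a slope of -0.0054 and its 3′ U share 0.00397.

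Leaving out experiments or single libraries turned further signs. Slopes of miR-221-3p ran from -0.00071 to 0.016 and of miR-222-3p from -0.031 to 0.0052. For 12 h against 0 h the ranges were -0.0081 to 0.37 (miR-221-3p), -0.313 to 0.402 (miR-222-3p) and -0.14 to 0.36 (miR-222-5p). For 12 h against 2 h they were -0.22 to 0.0015, -0.93 to 0.0063 and -0.24 to 0.29, and for 2 h against 0 h -0.19 to 0.31 in miR-222-5p. Mixed 3′ additions ran from -0.035 to 0.014 in miR-221-3p and from -0.028 to 0.058 in miR-222-5p, and the 3′ A share of miR-222-5p from -0.00504 to 0.026. The cause was not tested. The 215 to 866 counts of miR-222-5p limit its precision.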
